A study of Mus musculus with 6 samples.

Results

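The genes described here encode the enzymes that burn fatty acids in mitochondria and the enzymes that turn ketone bodies and acetate into acetyl-CoA. They were taken by gene symbol from a list of 33 names, and all 33 were among the 16538 genes measured in iWAT, the inguinal white adipose tissue under the skin of the mouse. RNA-Seq was performed on iWAT of adipocyte-specific Nrg4 knockout (NRG4-AKO, here AKO) mice and of controls that the labels call wt and the study describes as fl/fl littermates. In AKO mice a floxed Nrg4 allele is deleted by Adiponectin-Cre, so that the other cells of the depot keep the gene. All mice of both groups were fed chow and had been acclimated to 8°C, for 10 days according to the labels (the study's text gives a longer period), and no group without cold was part of the RNA-Seq. Each group had 3 samples, and the RNA of 2 mice of the same genotype was combined in each, whose age and sex the labels do not give. RNA was taken from the tissue without separating its cells.

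Fatty acids enter this pathway as acyl-CoA, made by acyl-CoA synthetases. The carnitine shuttle carries long acyl chains across the inner mitochondrial membrane, and beta-oxidation then shortens them in rounds of dehydrogenation, hydration, a further dehydrogenation and thiolytic cleavage. Electrons from the first dehydrogenation pass through the electron transfer flavoprotein to ubiquinone. In brown and beige adipocytes this oxidation feeds the respiration that UCP1 uncouples to make heat, and induction of these enzymes is a known part of beiging in the cold.

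Values are normalized counts, that is, reads per gene divided by one size factor per sample. The samples had 17570335 to 18373707 reads on the 16538 genes, with like ranges in both groups. Those 13855 genes whose mean reached 10 were compared with limma on the log2(normalized count + 1) scale, and every log2 fold change below is AKO minus control on that scale. A p given beside a fold change is adjusted over all genes by the Benjamini-Hochberg method unless called unadjusted. Nrg4 had 3128, 3102 and 3092 normalized counts in control and 2577, 2627 and 2691 in AKO iWAT, at a mean of 84.7% of control (adjusted p = 0.298 from limma), so that the targeted gene was lower in every AKO sample by counts over the whole gene, which also hold reads outside a deleted part. All 7 adipocyte markers examined were abundant, with a summed level of 538630 to 579890 normalized counts in control and 461550 to 535220 in AKO samples. These sums were lower in AKO samples and did not overlap between groups. Of the 7 markers, 6 had a log2 fold change below 0 (all genes tested: 48.1%) and 1 above 0 (all genes tested: 51.9%). The 6 thermogenic adipocyte markers (Ucp1, Cidea, Elovl3, Dio2, Cox7a1 and Cox8b) summed to 27331 to 39379 in control and 11047 to 14552 in AKO samples. In bulk tissue, fewer beige adipocytes and less of a transcript per adipocyte cannot be told apart.

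Libraries also differed in cells other than adipocytes. The sum of 12 skeletal muscle markers was 167, 27268 and 14961 across controls and 20129, 76890 and 118180 across AKO samples, and none of the 12 differed with an adjusted p under 0.05 in limma. In control replicate 1 each of these markers had between 2.01 and 62.2 normalized counts. The sum of 6 lymphocyte markers was 734 in control replicate 1 and 1024 in AKO replicate 2 but 74.2 to 108 in the other 4 samples. The 6 mammary epithelial markers summed to 10.8 to 1183 in control and 132 to 1550 in AKO samples, with 4 of them (Krt8, Krt14, Krt5 and Epcam) at 0 in control replicate 2. The sums of the 6 macrophage markers (7972 to 11262 in control, 9789 to 13700 in AKO) and the 5 progenitor markers (12163 to 16374 and 14875 to 19906) overlapped between groups, as did the 4 endothelial markers (15653 to 16821 and 14411 to 16374). Of the single markers, 3 macrophage and 3 progenitor markers were higher in AKO samples at an unadjusted p under 0.05 in limma (all genes tested: 4.41%). The progenitor markers Pdgfra, Dpp4 and Cd34 were higher in every AKO sample than in any control (all genes tested: 6.14%). DESeq2 called Dpp4 higher (adjusted p = 0.00844, all genes: 0.241%). The part of these cells in the results below was not tested, beyond the counts given without single libraries. The plot of marker sums shows each list by sample.

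**Figure D1:**
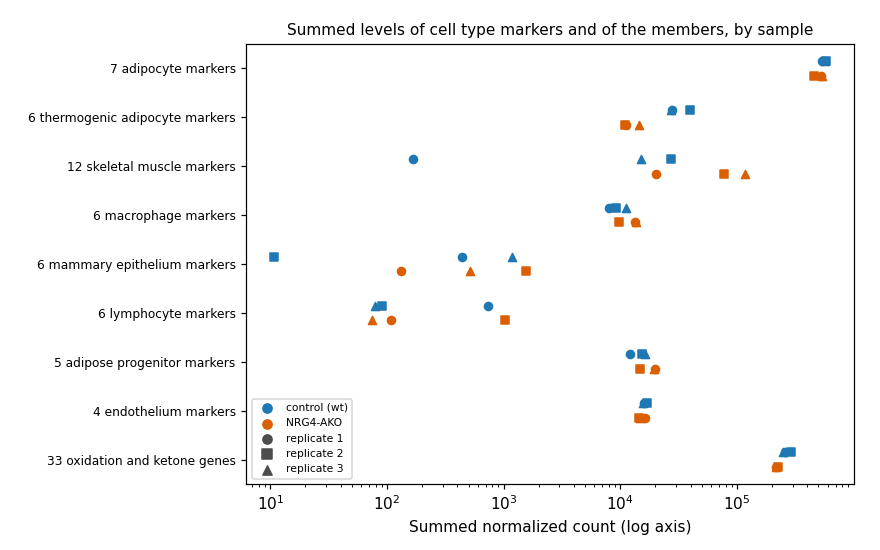
Each point is the summed normalized count (log axis) of a marker list, or of the 33 oxidation and ketone genes, in 1 sample, with blue for control, orange for AKO and the shape for the replicate number. Skeletal muscle, mammary and lymphocyte markers spread widely within groups (167 to 27268 for muscle in control). The sums of the adipocyte markers, the thermogenic markers and the 33 genes did not overlap between groups.

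Of the 33 genes, 32 passed the minimum mean of 10, and 30 of those had a log2 fold change below 0, beside 48.1% of all genes tested, and 2 above 0, beside 51.9%. Their median log2 fold change was -0.32, beside 0.01 over all genes tested. With limma, 0 of the 32 had an adjusted p under 0.05, beside 0.00722% of all genes called lower and 0.00722% called higher. At an unadjusted p under 0.05, 25 were lower (all genes tested: 4.69%) and 1 was higher (all genes: 4.41%). All 3 AKO values lay below all 3 control values for 25 genes (all genes: 8.31%), and all 3 lay above for 0 genes (all genes: 6.14%). DESeq2 on the reads recovered from the same values called 17 of the 33 lower and 0 higher, beside 0.757% and 0.241% of all genes with an adjusted p, and the quasi-likelihood test of edgeR called 0 in either direction (all genes: 0.00721% lower and 0.0144% higher). At an unadjusted p under 0.05, DESeq2 had 24 lower (all genes: 3.6%) and 1 higher (all genes: 3.27%), and edgeR had 24 of 31 lower (all genes: 4.07%) and 0 higher (all genes: 5.17%). The differences were modest in size, and 16 of the 32 genes had an AKO level under 80% of control (log2 fold change below -0.32, all genes: 3.64%).

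The sum over the 33 genes was 259000, 288180 and 249080 normalized counts across controls and 214150, 223430 and 216680 across AKO samples. It was 1.35% to 1.53% of all normalized counts in control and 1.21% to 1.27% in AKO samples. Control replicate 2 had the highest value among controls for 28 of the 33 genes, and it also had the highest sum of thermogenic markers. Without this sample, 22 genes were lower at an unadjusted p under 0.05 (all genes: 2.76%), 1 was higher (all genes: 3.7%), and the median was -0.26, with 0 called by limma after adjustment (all genes: 0.0144% lower and 0.00719% higher). Without control replicate 1, the sample almost without muscle transcripts, 25 were lower (all genes: 5.68%), 24 of them shared with the comparison of all samples, 0 were higher (all genes: 4.27%), and the median was -0.34. With both libraries that held lymphocyte markers left out, 22 were lower (all genes: 4.83%), all 22 shared, 0 were higher (all genes: 4.91%), and the median was -0.34.

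**Figure D2:**
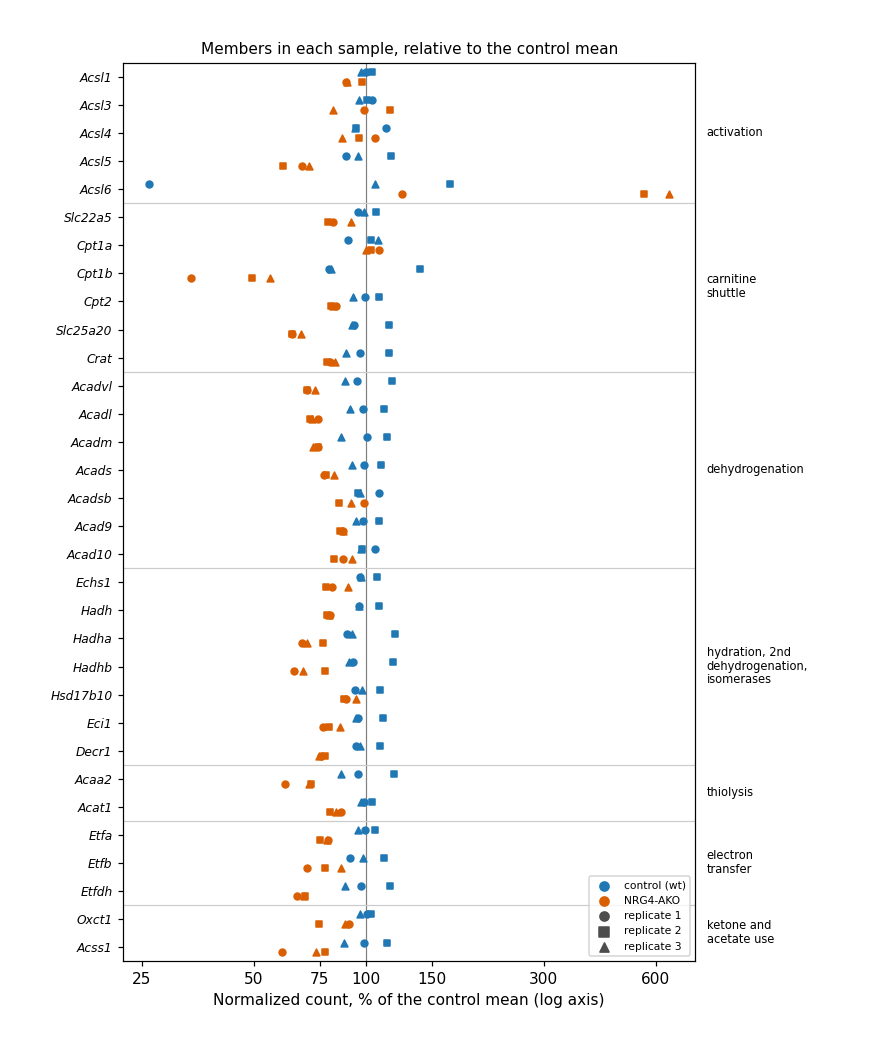
Each row is 1 of the 32 genes tested, ordered by step of the pathway, and each point is the normalized count of 1 sample as a percent of the control mean of that gene (log axis). AKO samples (orange) lie left of all control samples (blue) in 25 rows, while Acsl1, Acsl3, Acsl4, Acsl6, Cpt1a, Acadsb and Hsd17b10 overlap.

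Acyl-CoA synthetases activate fatty acids, and iWAT was dominated by Acsl1, the main isoform of fat cells. Acsl1 (chromosome 8, 46471037 to 46536051 in GRCm38) had 101545, 105128 and 98289.9 normalized counts in control and 89899, 98942 and 90146 in AKO iWAT. These values overlapped, with a log2 fold change of -0.13 (95% confidence interval -0.36 to 0.10, adjusted p = 0.763 from limma). Per kilobase of exon, on the TPM scale computed from the normalized counts, the level of Acsl1 was 2379.6 ± 103 in control and 2228 ± 179 in AKO (SD, n = 3), the highest of the 33 genes in both groups.

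Acsl5, a second synthetase found on mitochondria and the endoplasmic reticulum, separated the groups. Acsl5 (chromosome 19, 55251938 to 55297720) had 1833, 2413 and 1974 normalized counts in control and 1392, 1243 and 1459.6 in AKO samples. Every AKO sample was lower, and the AKO mean was 65.8% of the control mean (log2 fold change -0.60, standard error 0.11, adjusted p = 0.227 from limma, and 0.000146 from DESeq2). The log2 ratio of Acsl5 to Acsl1 within a sample was lower in every AKO sample, by 0.47 (standard error 0.15), with an exact permutation p of 0.1, the smallest possible with 3 samples against 3, and 0.35 when adjusted over the 7 pairs of genes compared in this way. These pairs were chosen after the values of the genes had been seen.

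The other synthetases showed no separation. Acsl3, which acts on lipid droplets and the endoplasmic reticulum, had a log2 fold change of -0.03 (95% interval -0.32 to 0.25), and Acsl4, which prefers arachidonic acid, one of -0.06 (95% interval -0.31 to 0.19). Acsl6, a synthetase best known from brain, was near the limit of detection, with 1, 6 and 4 reads in control and 5, 22 and 26 in AKO samples. Its values overlapped between groups (unadjusted p = 0.0412 and adjusted p = 0.534 from limma), and the order of the 6 samples by Acsl6 was the order by the sum of skeletal muscle markers. Whether muscle transcripts account for Acsl6 reads was not tested.

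The carnitine shuttle held the gene with the smallest adjusted p of the whole list. Slc25a20, the carnitine-acylcarnitine translocase of the inner membrane (chromosome 9, 108662088 to 108684641), had 3993, 4961 and 3946 normalized counts in control and 2719.6, 2714 and 2879 in AKO samples. The groups did not overlap, with a gap of 24.8% of the control mean between the groups, and the AKO mean was 64.4% of control (log2 fold change -0.63, standard error 0.09, adjusted p = 0.14 from limma, and 4.7e-07 from DESeq2). Its log2 fold change ranged, as single samples were omitted, between -0.68 and -0.52. The sequence before its start is shown because Slc25a20 had the smallest adjusted p. It is the RefSeq promoter window of GRCm38.p6 up to the annotated gene (chr9:108661886-108662087, plus strand), with GC boxes (GGGCGG on either strand, letters that Sp1 is known to bind) in capitals.
Slc25a20: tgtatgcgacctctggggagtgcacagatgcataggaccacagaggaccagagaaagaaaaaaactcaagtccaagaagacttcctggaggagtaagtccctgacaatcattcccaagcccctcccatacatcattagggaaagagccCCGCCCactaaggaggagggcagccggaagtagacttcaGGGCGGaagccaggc

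Cpt2, the inner membrane carnitine palmitoyltransferase that returns the acyl chain to CoA, had 7129.9, 7757 and 6591 normalized counts in control and 5941, 5748 and 5834 in AKO samples. The groups did not overlap, and the AKO mean was 81.6% of control (log2 fold change -0.29, standard error 0.07, adjusted p = 0.349 from limma, and 0.0347 from DESeq2). Crat, which exchanges short acyl groups between CoA and carnitine, was lower in every AKO sample (80.3% of control, log2 fold change -0.31, standard error 0.10, adjusted p = 0.469 from limma, and 0.0876 from DESeq2). Slc22a5, the carnitine importer of the plasma membrane, was also lower in each AKO sample (83.9% of control, log2 fold change -0.25). A stretch of 41.6% of the longest coding transcript of Slc22a5 has a copy of up to 99.3% identity in Slc22a21, so that reads could be shared or lost between them.

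Carnitine palmitoyltransferase 1, the outer membrane enzyme that malonyl-CoA inhibits, is made from Cpt1a and Cpt1b. Cpt1a, the isoform typical of liver, had 965, 1113 and 1168 normalized counts in control and 1175, 1117 and 1082 in AKO samples, which overlapped (log2 fold change 0.06, 95% interval -0.13 to 0.25, and -0.021 without control replicate 1). Cpt1b, the isoform of muscle and brown fat (chromosome 15, 89416405 to 89425863), had 36.1, 63.4 and 36.6 in control and 15.4, 22.5 and 25.1 in AKO samples. Every AKO sample was lower, and the AKO mean was 46.2% of control (log2 fold change -1.06, standard error 0.31, adjusted p = 0.414 from limma, and 0.32 from DESeq2). The part of muscle transcripts in the Cpt1b reads was not tested. Per kilobase of exon, Cpt1b made up 7.82%, 11.4% and 6.63% of Cpt1a plus Cpt1b across controls and 2.88%, 4.36% and 4.99% across AKO samples. The shares did not overlap (exact permutation test, p = 0.1, adjusted p = 0.2 over the 2 ratios compared). The level of Cpt1b is uncertain, since 81.4% of its exonic bases are shared with Gm44502, a gene model on the same strand, and the treatment of reads on shared bases is not stated.

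The acyl-CoA dehydrogenases of the straight chains were lower together. Acadl, the long-chain enzyme (chromosome 1, 66830839 to 66863277), had 14728, 16735 and 13548 normalized counts in control and 11120.4, 10617 and 10763 in AKO samples. All AKO values lay under all control values, at a mean of 72.2% of control (log2 fold change -0.46, standard error 0.09, adjusted p = 0.227 from limma, and 6e-05 from DESeq2). On the TPM scale, Acadl was the most abundant dehydrogenase, at 1835 ± 179 in control and 1356 ± 41.4 in AKO (SD, n = 3). Its upstream sequence in the RefSeq window of GRCm38.p6 (chr1:66863278-66863559, printed along the minus strand on which the gene lies) is shown because Acadl was the most abundant dehydrogenase, and it held 4 GC boxes, again in capitals.
Acadl: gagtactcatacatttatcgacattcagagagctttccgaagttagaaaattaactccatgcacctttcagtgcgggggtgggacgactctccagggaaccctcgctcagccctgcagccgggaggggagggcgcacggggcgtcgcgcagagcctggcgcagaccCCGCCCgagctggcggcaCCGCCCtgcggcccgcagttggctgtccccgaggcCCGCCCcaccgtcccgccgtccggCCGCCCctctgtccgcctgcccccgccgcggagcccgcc

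Acadvl, the very-long-chain enzyme bound to the inner membrane, had 9316, 11576 and 8656 normalized counts in control and 6817, 6837 and 7183 in AKO samples (70.5% of control, log2 fold change -0.49, standard error 0.11, adjusted p = 0.295 from limma, and 0.000608 from DESeq2). Acadm, the medium-chain enzyme, had 12958, 14737 and 11046 in control and 9566, 9609 and 9278 in AKO samples (73.4% of control, log2 fold change -0.44, standard error 0.10, adjusted p = 0.315 from limma, and 0.0026 from DESeq2). Acads, the short-chain enzyme, had 3482, 3871 and 3242 in control and 2715, 2761 and 2892 in AKO samples (79% of control, log2 fold change -0.34, standard error 0.08, adjusted p = 0.304 from limma, and 0.0187 from DESeq2). For each of these genes the groups did not overlap. Of the exonic bases of Acadvl, 42.9% overlap Dvl2 on the opposite strand, and whether counting used strand is not stated.

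From very long to short chains the AKO level relative to control was 70.5%, 72.2%, 73.4% and 79%, and it was 91.5% for Acadsb, which acts on short branched chains from isoleucine. For each neighboring pair in this order, the within-sample ratio overlapped between groups. The within-sample log2 ratio of Acadvl to Acadl differed by -0.03 between groups (standard error 0.05, exact permutation test p = 0.7), Acadl to Acadm by -0.03 (standard error 0.04, exact p = 0.6), Acadm to Acads by -0.10 (standard error 0.06, exact p = 0.3) and Acads to Acadsb by -0.21 (standard error 0.13, exact p = 0.2). Acadsb itself overlapped between groups (log2 fold change -0.13, 95% interval -0.32 to 0.06). Acad9, which also serves as an assembly factor of respiratory complex I, and Acad10 were each lower in every AKO sample, with log2 fold changes of -0.21 and -0.20, and neither was called by DESeq2 (adjusted p = 0.628 and 0.997). Acad10 has a copy of up to 99.5% identity over 47.5% of its longest coding transcript in Acad12.

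**Figure D3:**
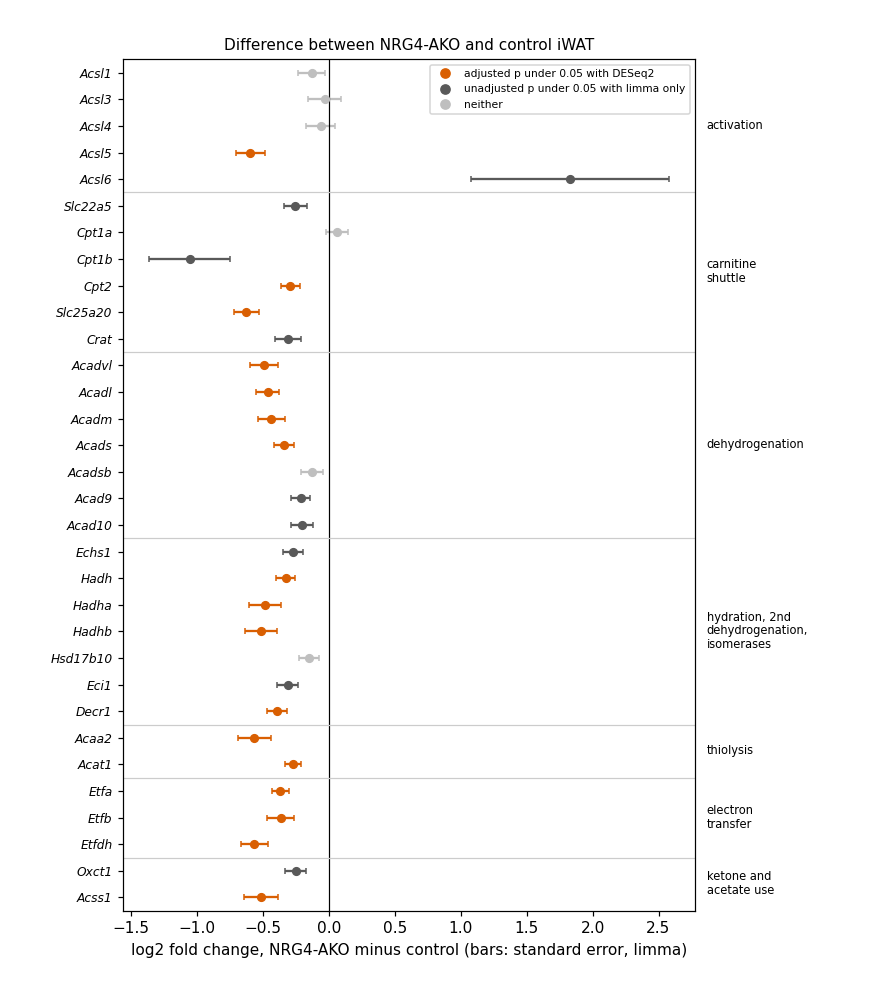
Points are log2 fold changes (AKO minus control) with bars of 1 standard error from limma for the 32 genes tested, ordered by step. Orange points are the 17 genes with an adjusted p under 0.05 in DESeq2 on recovered reads, dark gray points had an unadjusted p under 0.05 in limma only, and light gray points neither, and all points except Acsl6 and Cpt1a lie below 0.

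The trifunctional protein carries out the last 3 steps of the cycle on long chains, with Hadha as its alpha and Hadhb as its beta subunit. Hadha (chromosome 5, 30118304 to 30155162) had 17274, 23179.8 and 17761 normalized counts in control and 13035, 14871 and 13491 in AKO samples (71.1% of control, log2 fold change -0.48, standard error 0.12, adjusted p = 0.35 from limma, and 0.00285 from DESeq2). Hadhb (chromosome 5, 30155248 to 30184593) had 1523, 1949 and 1487 in control and 1055, 1281 and 1121 in AKO samples (69.7% of control, log2 fold change -0.51, standard error 0.12, adjusted p = 0.315 from limma, and 0.0064 from DESeq2). Both genes were lower in every AKO sample. They lie head to head on chromosome 5, and the 85 bases between the annotated genes, shown here because both genes begin at its ends, hold 2 GC boxes in capitals (RefSeq windows of GRCm38.p6, chr5:30155163-30155247, in the direction of Hadhb).
Hadha and Hadhb: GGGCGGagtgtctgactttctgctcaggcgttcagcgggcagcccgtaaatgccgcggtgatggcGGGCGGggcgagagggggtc

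Per kilobase of exon, the ratio of Hadhb to Hadha was 0.113 ± 0.00328 (SD, n = 3) in control iWAT against 0.110 ± 0.00344 with AKO. The ratio overlapped between groups (difference -0.0025, exact permutation test, p = 0.4, adjusted p = 0.4 over the 2 ratios compared). The low level of Hadhb beside its partner is uncertain, because 69.7% of its longest coding transcript has a copy of up to 99.8% identity in Gm13910 and 69.6% has one of up to 97.6% in Gm9108. How reads that match several places were counted is not stated.

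Of the other enzymes after the first dehydrogenation, Hadh, the short-chain 3-hydroxyacyl-CoA dehydrogenase, had 11239, 12762 and 11258 normalized counts in control and 9422, 9250.5 and 9359 in AKO samples (79.5% of control, log2 fold change -0.33, standard error 0.07, adjusted p = 0.295 from limma, and 0.00366 from DESeq2). Decr1, the dienoyl-CoA reductase needed for polyunsaturated chains, had 7482, 8676 and 7673 in control and 6009.6, 6175 and 5927 in AKO samples. Its groups did not overlap (76.0% of control, log2 fold change -0.39, standard error 0.07, adjusted p = 0.227 from limma, and 0.000355 from DESeq2). Eci1, the isomerase for unsaturated chains, and Echs1, the short-chain enoyl-CoA hydratase, were also lower in each AKO sample, at 80.4% and 82.9% of control. Neither was called by DESeq2 (adjusted p = 0.0585 and 0.0846). Hsd17b10, a dehydrogenase of branched chains that is also part of mitochondrial RNase P, overlapped between groups (log2 fold change -0.15, 95% interval -0.32 to 0.02).

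Thiolysis was represented by Acaa2, the thiolase of medium chains, and Acat1, which acts on acetoacetyl-CoA and serves ketone and isoleucine metabolism. The groups were apart for both, with Acaa2 at 5105, 6362 and 4599 normalized counts in control and 3239, 3801 and 3754 in AKO samples. For Acat1 the values were 7657, 8058 and 7526 in control and 6617, 6208 and 6432 in AKO samples, at a mean of 82.9% of control (log2 fold change -0.27, standard error 0.06, adjusted p = 0.304 from limma, and 0.0167 from DESeq2). The AKO mean of Acaa2 was 67.2% of control, and the within-sample log2 ratio of Acaa2 to Acat1 was lower in AKO samples, by 0.29 on average, with overlapping values (standard error 0.15, exact permutation test, p = 0.2).

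All 3 genes of electron transfer were lower in every AKO sample than in any control (all genes: 8.31%). DESeq2 called all 3 lower (all genes: 0.757%), and limma called 0 of them. Etfa, the alpha subunit of the electron transfer flavoprotein (chromosome 9, 55454508 to 55512243), had 4887, 5217 and 4674 normalized counts in control and 3893, 3693 and 3862 in AKO samples (77.5% of control, log2 fold change -0.37, standard error 0.06, adjusted p = 0.205 from limma, and 0.000544 from DESeq2). Etfb, the beta subunit, had 4152, 5104 and 4479 in control and 3181, 3551 and 3925 in AKO samples (77.6% of control, log2 fold change -0.37, standard error 0.10, adjusted p = 0.387 from limma, and 0.0495 from DESeq2), with 53.0% of its exonic bases shared with Gm45233 on the same strand. Etfdh, which hands the electrons to ubiquinone (chromosome 3, 79603788 to 79629500), had 5771, 6907 and 5225 in control and 3881, 4088 and 4064 in AKO samples. It was at 67.2% of control (log2 fold change -0.56, standard error 0.10, adjusted p = 0.205 from limma, and 2e-05 from DESeq2). The ratio of Etfb to Etfa per kilobase of exon was 1.46 ± 0.11 (SD, n = 3) in control iWAT against 1.47 ± 0.16 with AKO, which overlapped. The within-sample log2 ratio of Etfdh to Etfa was lower in every AKO sample, by 0.20 on average (standard error 0.08, exact permutation test, p = 0.1, adjusted p = 0.35 over the 7 pairs).

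Ketone and acetate use were covered by Oxct1, Bdh1 and Acss1. Oxct1, the transferase that commits acetoacetate to oxidation, had 5385, 5532 and 5180.3 normalized counts in control and 4833, 4020.4 and 4699.97 in AKO samples. The groups did not overlap (84.2% of control, log2 fold change -0.25, standard error 0.08, adjusted p = 0.467 from limma), and DESeq2 did not call it (adjusted p = 0.227). Acss1, which activates acetate in mitochondria, had 636, 732 and 560.1 in control and 381, 499 and 470.5 in AKO samples (70.0% of control, log2 fold change -0.51, standard error 0.13, adjusted p = 0.35 from limma, and 0.0459 from DESeq2), again without overlap. Bdh1, which interconverts 3-hydroxybutyrate and acetoacetate, had only 6, 10 and 9 reads in control and 3, 16 and 10 in AKO samples, did not pass the minimum mean and was not tested by limma. These few reads do not decide whether Bdh1 differed between groups.

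Levels of different genes can be compared only per length, and on that scale the 33 genes spanned a wide range. In control iWAT the levels on the TPM scale ran from 0.0934 for Acsl6 and 0.542 for Bdh1 to 1835 for Acadl and 2379.6 for Acsl1. Below Acadl came Etfb (963 ± 70.9), Acadvl (898 ± 123), Acaa2 (865 ± 132) and Acadm (809 ± 111, all SD, n = 3), neighbors that lay within 1 SD of each other. This order depended on the length used, since per longest transcript, an alternative chosen after seeing the data, Acadm (1188 ± 163), Etfb (964 ± 71.7) and Hadha (908 ± 129) followed Acadl. Acsl1 and Acadl stood highest and Cpt1b, Bdh1 and Acsl6 lowest with either length. The rate-limiting Cpt1 step was thinly transcribed beside them, with Cpt1a at 34.7 and Cpt1b at 3.28. As shares of the summed per-length levels of the 33 genes, the synthetases made up 17.5% ± 0.933 (SD, n = 3) in control and 20.1% ± 0.986 in AKO samples, although their own summed normalized counts were not higher (101340 to 108650 in control and 92447 to 101420 in AKO samples). The dehydrogenases made up 28.2% ± 0.918 and 26.4% ± 0.631, and thiolysis 9.40% ± 0.276 and 8.73% ± 0.223. The shares of these 3 steps did not overlap between groups, and those of the other 4 overlapped.

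**Figure D4:**
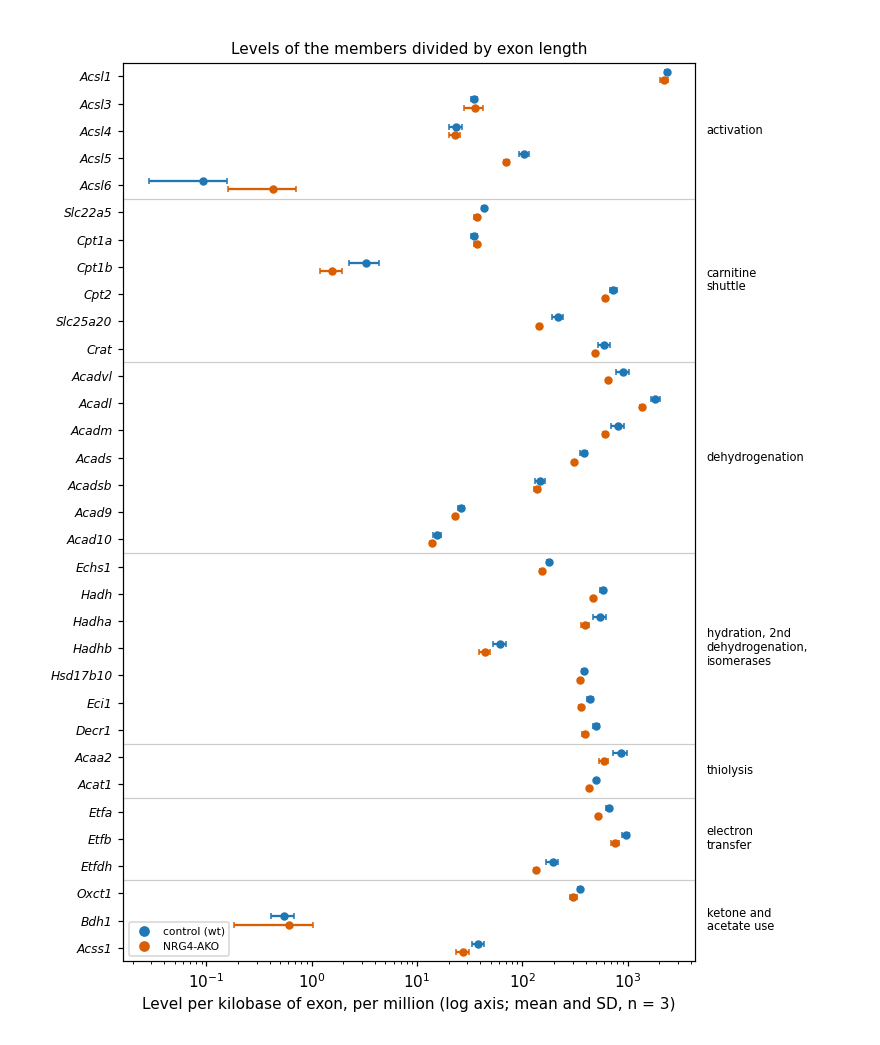
Levels of the 33 genes per kilobase of exon, on the TPM scale (log axis), as mean and SD of 3 control (blue) and 3 AKO (orange) samples. Acsl1 and Acadl stand highest in both groups, Acsl6, Bdh1 and Cpt1b lowest, and most AKO points lie slightly left of the control points.

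RefSeq promoter windows (GRCm38.p6, 250 bases before to 50 after a start) were found for 27 of the 33 genes, 31 windows in all. A GC box stood in 23 of the 31 windows (74.2%), beside 35.7% of all 32851 windows. The direct repeat bound by PPAR (DR1, exact consensus) stood in 0 of the 31 and in 0.04% of all windows, and the cAMP response element TGACGTCA in 0 of the 31 and in 1.79% of all windows. The estrogen-related receptor letters TCAAGGTCA stood in 1 window, that of Acsl6 (all windows: 0.42%), and the exact NRF1 consensus in 2, those of Etfdh and Acad10 (all windows: 0.97%). Both strands were searched, and matches are a description of these windows only.

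Around the pathway, 35 further genes in 3 lists were examined, of which 33 were tested and 0 passed an adjusted p under 0.05 in limma. At an unadjusted p under 0.05, 11 of the 33 were lower (all genes: 4.69%) and 0 were higher (all genes: 4.41%), and DESeq2 called 5 lower (all genes: 0.757%). Their median log2 fold change was -0.13. Of 16 other acyl-CoA enzymes tested, 5 were lower at that unadjusted level, again beside 4.69% of all genes. Acad11, an acyl-CoA dehydrogenase of long chains, had 5663, 5486 and 5288 normalized counts in control and 4563, 4484 and 4771 in AKO samples (log2 fold change -0.25, standard error 0.06, adjusted p = 0.315 from limma, and 0.0474 from DESeq2). The synthetases Acsf2 and Acsf3 (log2 fold changes -0.31 and -0.35), the hydratase-like Echdc3 (-0.17) and Ivd of leucine breakdown (-0.18) made up the rest of the 5, and all except Ivd were without overlap between groups.

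The 2 genes of the further lists with the lowest log2 fold changes, Fabp3 and Pdk4, belonged to fatty acid supply and control. Fabp3, a fatty acid binding protein of heart and thermogenic fat, had 559, 566 and 432 normalized counts in control and 151, 60.5 and 186 in AKO samples, with no overlap (25.5% of control, log2 fold change -2.10, standard error 0.37, adjusted p = 0.205 from limma, and 0.00485 from DESeq2). Pdk4, the kinase that shuts pyruvate dehydrogenase when fat is burned, had 5438, 8743 and 4959.7 in control and 2587, 2996 and 3031 in AKO samples, also with no overlap (45.0% of control, log2 fold change -1.11, standard error 0.19, adjusted p = 0.205 from limma, and 0.007 from DESeq2). Ppara, the nuclear receptor of fatty acid oxidation, overlapped between groups (log2 fold change -0.53, standard error 0.18, adjusted p = 0.484 from limma, and 0.0474 from DESeq2). Mlycd, which removes malonyl-CoA, and Esrra, the estrogen-related receptor alpha, were lower in each AKO sample, with log2 fold changes of -0.36 and -0.31. The fatty acid uptake genes Cd36 (-0.11, 95% interval -0.31 to 0.08) and Slc27a1 (-0.11, 95% interval -0.31 to 0.10) overlapped between groups, as did Acaca, the cytosolic acetyl-CoA carboxylase (0.24, 95% interval -0.20 to 0.68).

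Of 6 genes of ketone synthesis and transport, 1 was lower at an unadjusted p under 0.05 in limma (all genes: 4.69%). A log2 fold change above 0 was seen for 3 of the 6 (all genes: 51.9%), and the median was -0.01. Slc16a1, the monocarboxylate transporter that carries lactate and ketone bodies, had 1187, 1445 and 1102 normalized counts in control and 835, 696 and 862 in AKO samples. The groups were apart (64.1% of control, log2 fold change -0.64, standard error 0.12, adjusted p = 0.227 from limma, and 0.000307 from DESeq2). The related transporter Slc16a7 overlapped between groups (0.09, 95% interval -0.54 to 0.72). Bdh2, a cytosolic 3-hydroxybutyrate dehydrogenase named after its values were seen, was higher in every AKO sample at a low level (136.5% of control, log2 fold change 0.44, standard error 0.22, unadjusted p = 0.078 from limma).

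**Figure D5:**
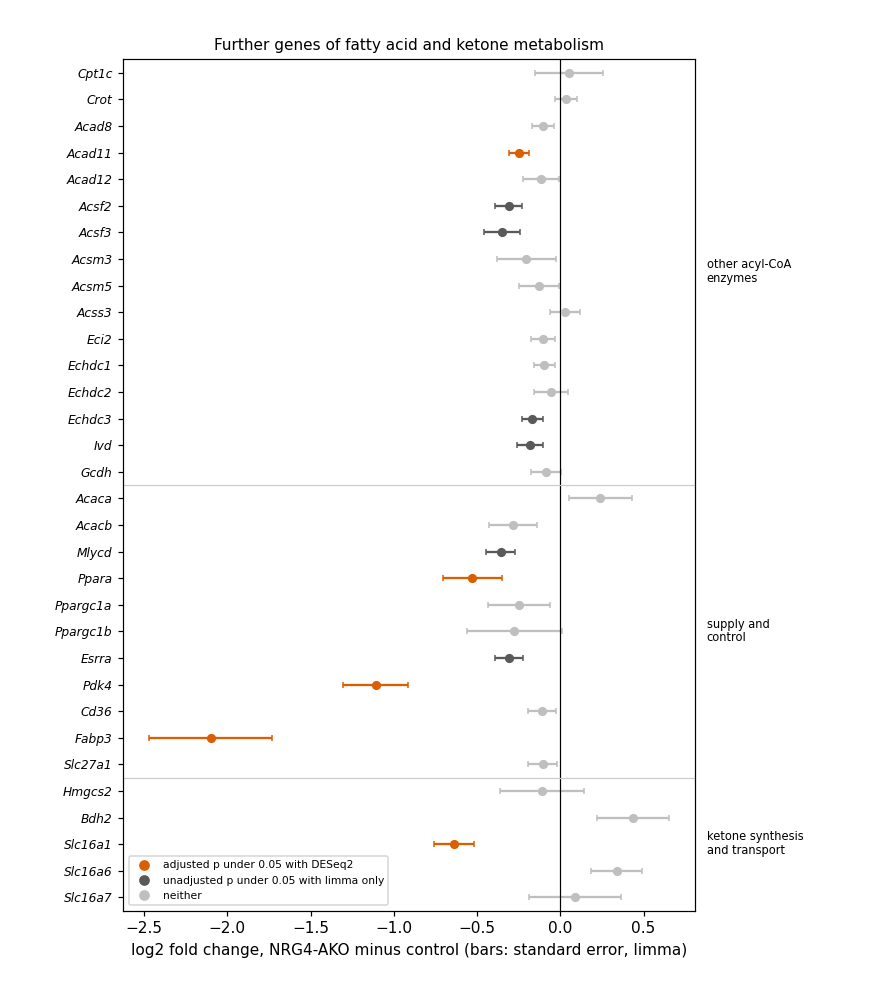
Log2 fold changes (AKO minus control) with bars of 1 standard error from limma for 32 of the 33 further genes tested, in 3 lists. Colors are as in the plot of fold changes of the oxidation genes, and Fabp3 (-2.10), Pdk4 (-1.11) and Slc16a1 (-0.64) lie farthest below 0.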

How the data were processed

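RNA was sequenced by the authors from iWAT of 3 control and 3 AKO samples, grouped here by their labels. The authors aligned reads with STAR (version 2.7.4a) against GRCm38.p6, obtained gene counts from featureCounts (Rsubread 2.0.1) on a GENCODE annotation and analysed genotype with DESeq2 (version 1.30.0). The deposited values are a normalized signal per gene and sample, the read count divided by the size factor of the sample. The deposited table also holds log2 fold changes and p-values of the authors' own comparison, which were not used. The filter behind the 16538 listed genes and the use of strand are not stated.

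Values divided by the value of 1 read gave whole numbers for 100% of genes in every sample (tolerance 0.01), with 17570335 to 18373707 reads a sample. Because the values were normalized, limma (version 3.58.1, trend in the variance, two-sided, Benjamini-Hochberg adjustment over all genes tested) on log2(value + 1) was the main test, for genes with a mean of at least 10. DESeq2 (version 1.42.0) and edgeR (version 4.0.16) were run on recovered reads. Single values were compared by two-sided exact permutation tests of 3 samples against 3, whose smallest p is 0.1. Code was tested on simulated data. Positions, exon lengths and copies (blastn 2.17.0) came from GENCODE M21 on GRCm38, which matched 96.1% of listed symbols, and promoters from RefSeq. Replicates were pools of mice, so that p-values measure the spread between these pools.

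All 33 genes are named. Of the further lists, the 3 genes with the highest mean and every gene with an unadjusted p under 0.05 are named, except 1 gene that is not reported here. The genes and lists were chosen with earlier results of these data known. Other pseudocounts, filters, scalings and tools, and the omission of each sample, were tried as alternatives.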

Additional observations from a re-analysis of the deposited data

How the results depend on the processing

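Over all genes, limma called 1 gene lower and 1 higher. These counts were 4 and 2 with at least 10 in every sample, 9 and 2 with robust empirical Bayes, and 113 and 36 with DESeq2, while edgeR called 2 higher. DESeq2 called 17 of the 33 genes lower, and every other setting called 0. With each sample left out in turn, 0 to 2 genes were called lower and 0 to 1 higher, and with both libraries that held lymphocyte markers left out, an alternative chosen after seeing the data, 0 and 0. No pairing of the samples by replicate number was evident (correlations of same-numbered deviations 0.14, -0.35 and 0.24, and not every sample correlated best with its own number). Deviations from means of 3 samples a group cannot exclude a pairing. With the replicate number as a block, 0 genes were called lower and 2 higher over all genes. In that setting 24 of the 32 pathway genes tested were lower at an unadjusted p under 0.05, and the share of all genes was not counted.

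The 25 genes lower at an unadjusted p under 0.05 became 22 to 25 with each sample left out and 24 with TMM factors, edgeR or DESeq2, and the genes lost were among Acad10, Acad9 and Slc22a5. The median log2 fold change ranged from -0.37 to -0.26 with each sample left out. The 1 gene higher at that level, Acsl6, became 0 with at least 10 in every sample, with edgeR and with both lymphocyte-marked libraries left out, and 0 to 1 with each sample left out. With each sample left out, 0 to 1 genes lay higher without overlap. Genes near 0 changed sign. With each sample left out, Acsl3 ranged from -0.16 to 0.10 (above 0 without AKO replicate 3), Acsl4 from -0.13 to 0.028 (above 0 without control replicate 1 or, at 0.011, AKO replicate 3) and Cpt1a from -0.021 (without control replicate 1) to 0.12. Without both lymphocyte-marked libraries Acsl4 was at 0.027 and Cpt1a at -0.016. The cause was not tested. Depth limits Acsl6, Bdh1 and Cpt1b most, with at most 59 reads a sample.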

Other observations

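The median coefficient of variation over the 32 genes tested was 9.51% in control and 5.53% in AKO samples, beside 9.67% and 8.34% over all genes tested. It was smaller in AKO samples for 24 of the 32 genes and for 56.5% of all genes tested. Control replicate 3 had the lowest control value for 20 of the 33 genes. These are descriptions over 3 samples a group, and the difference in spread was not tested.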
